A study of Homo sapiens with 13 samples.

Results

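The 3’ ends of mRNAs that lie within 100 nt of the stop codon are the subject here, in HEK293 cells, a human embryonic kidney line, that express either a wild-type or a slow RNA polymerase II (Pol II). They were selected on measured values: a 3’ end (isoform) had to be 1 to 100 nt downstream of the end of the open reading frame in the authors' table, with a scaled read count of at least 5 in the merged libraries of both cell lines. The rule was met by 4363 of the 47233 isoforms with at least 5 scaled reads in both lines, and by 4363 of the 211765 isoforms with any read. They lie in 1268 of 11035 CCDS entries (consensus coding sequences), of 1256 gene symbols.

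The cells were HEK293 Flp-in TREX lines with an integrated gene for Avitag-labelled Rpb1, the largest Pol II subunit, in a form resistant to α-amanitin. One line carries wild-type Rpb1 (5 libraries) and the other the R749H substitution in Rpb1, which slows elongation (4 libraries). Both lines received doxycycline at 2 µg/ml to induce the transgene, for 24 hr according to the sample labels, and then α-amanitin at 2.5 µg/ml for 42 hr to inhibit the endogenous Pol II. The methods of the study give a shorter induction before the α-amanitin, with doxycycline kept on during it. Each genotype was studied as 1 cell line, so effects of the line and of the mutation cannot be told apart. Poly(A) RNA was measured by 3’ READS, which sequences the end of the RNA next to the poly(A) tail, and the study calls the replicates biological. The wild-type libraries held 2479851 to 10135014 recovered reads within 5 kb of a stop codon, and those of R749H 3863468 to 6475987. R749H replicate 3 stood apart, since it lists 41033 isoforms, of which 6.60% have 1 read, against 30.05% to 36.2% in the other 8 libraries. Of the HEK293 markers, KRT18 had 364 to 684 RPM (reads scaled to 1000000 per library) and VIM, KRT8 and LIN28B had reads in all 9 libraries, whereas NEFL had none and NEFM at most 1 read in a library. PTPRC, COL1A2 and PECAM1, markers of other cell types, had no read, ALB at most 1 and COL1A1 at most 4 in a library.

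An mRNA is cleaved some bases downstream of the hexamer AATAAA or a close variant of it, which the CPSF complex binds, and receives its poly(A) tail there. Most human mRNAs carry a 3’ untranslated region (3’ UTR) that is far longer than that between the stop codon and this site. Where the 3’ end is within 100 nt, little of that region remains, and the hexamer can lie close to the last codons or even within them. The cytosolic ribosomal protein genes, whose mRNAs are among the most abundant of a growing cell, are known for short 3’ UTRs.

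Of the 10 most read of these 3’ ends, at most 1 per gene, 9 are described here, in RPS14, RPL7A, RPS6, RPL8, RPL35, RPL18, RPL36, RPS16 and RPS24. All 9 are ribosomal protein genes. Their sequences show how little RNA separates stop codon, hexamer and cleavage. Each line below gives 30 bases of the sense strand, 5′ to 3′, read from GRCh37, with the hexamer in capitals, and the last base is the 3’ end except in RPL7A and RPS16, where the hexamer lies farther upstream.
RPS14: atattttctgttAATAAAttgccttcatgt
RPL7A: tgtaCATAAAaataattgaaataatacaaa
RPS6: tgagtaacaAATAAAtaagatcagactctg
RPL35: cgcattgtcAATAAAgcacagctggctgag
RPL18: tactctcttATTAAAaagatttttgctgac
RPL36: ctctccctgaAATAAAgaacagcttgacag
RPS16: gtatAATAAAcagtttttgagggattttaa
RPS24: tcgcaagaacattAATAAActaaaaacttc
The RPS14 run is chr5:149823804-149823833, minus strand, and its 3’ end is 45 nt after the TGA stop codon. RPL7A is the one without AATAAA or ATTAAA, and its RNA ends at 59 nt (chr9:136218242-136218271, plus strand). Its CATAAA, which came first in the order of search, starts at 25 nt. AATACA, later in that order, also lies in the run. RPS6 ends at 37 nt (chr9:19376254-19376283, minus strand), RPL35 at 34 nt (chr9:127620163-127620192, minus strand), RPL18 at 40 nt with ATTAAA (chr19:49118589-49118618, minus strand) and RPL36 at 44 nt (chr19:5691647-5691676, plus strand). RPS16 ends at 61 nt (chr19:39923858-39923887, minus strand) and RPS24 at 70 nt (chr10:79800425-79800454, plus strand). The RPL8 end, at 34 nt, is given without its sequence. All 9 ends lie in annotated 3’ UTRs. Ribosomal protein genes have processed copies elsewhere in the genome, and how reads that map to several places were handled is not given in the sources used here, so their read numbers are uncertain to that extent.

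The 3’ ends became more frequent with distance from the stop codon, but their reads did not. There were 73 isoforms at 1 to 10 nt, 290 at 11 to 20 nt, 296 at 21 to 30 nt and 578 at 91 to 100 nt. Of the wild-type reads of all 4363 isoforms, 0.0750% ended at 1 to 10 nt, 25.8% at 31 to 40 nt, 26.8% at 41 to 50 nt and 17.4% at 51 to 60 nt, and 4.85% at 91 to 100 nt. In R749H, the shares at 31 to 40 nt and 41 to 50 nt were 27.3% and 28.1%. The most read end of the 88 entries of cytosolic ribosomal proteins lay at a median of 53.5 nt, with 48 of them at 31 to 60 nt, against a median of 739 nt over all 11035 entries.

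**Figure D1:**
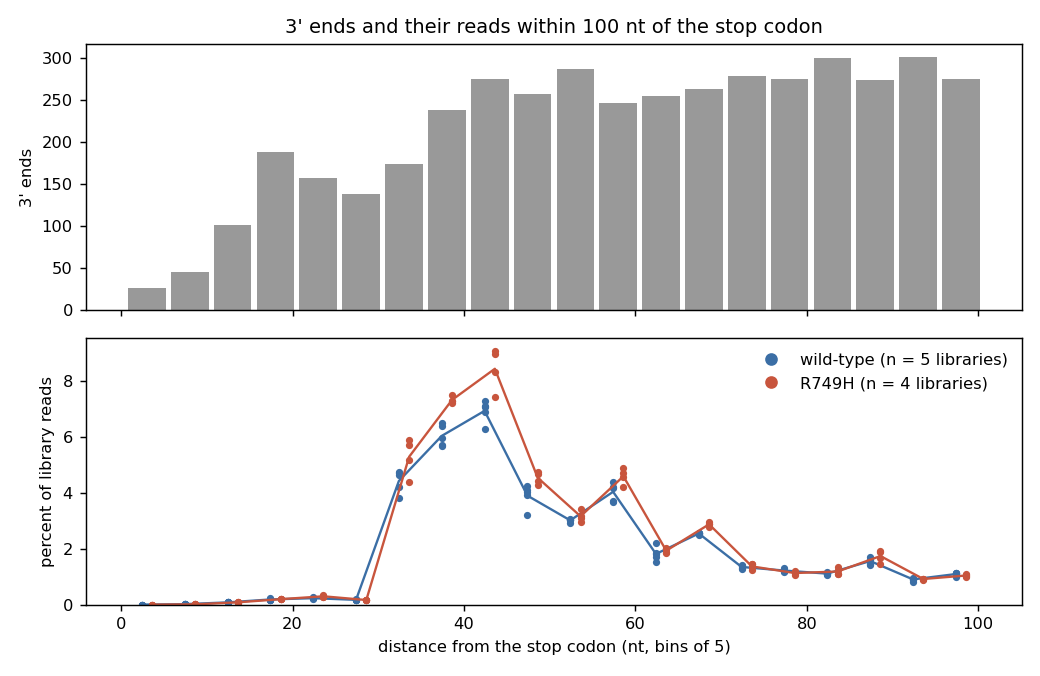
Upper panel, number of 3’ ends with at least 5 scaled reads in both lines per 5 nt of distance from the stop codon. Lower panel, percent of all reads of a library at these ends (points, 5 wild-type and 4 R749H libraries; lines, group means). The ends spread to 100 nt while the reads peak between 31 and 60 nt.

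The ends closest to the stop codon had few reads. The most read of those at 1 nt was in TBL3, a protein of ribosome biogenesis, with 131 wild-type and 92 R749H reads, and the same gene had 246 and 161 reads at 2 nt. MTERF2, a mitochondrial transcription factor, had 27 and 7 reads at 1 nt. GCFC2 and ADSL at 2 nt had 10 wild-type reads each, which is near the read minimum. At the other threshold, 62 isoforms were at 100 nt and 52 were 1 nt farther. NDUFB11, a subunit of respiratory complex I, was the most read at 100 nt (56079 wild-type and 44963 R749H reads), and COMTD1 the most read 1 nt farther (39988 and 15874 reads), which the rule leaves out. For the read minimum, 263 isoforms had under 6 scaled reads in either line, and another 367 within 100 nt had 4 to under 5 in the lower line and at least 5 in the other. A further 262 with at least 5 scaled reads in 1 line had none in the other, 133 of them in wild-type and 129 in R749H.

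An entry held a median of 2 such ends, and at most 28 (RPL7A), followed by RPL32 with 26 and HYPK with 21. In the 818 entries with several, the ends spanned a median of 9 nt, and the most read one took a median of 67.2% of their wild-type reads. In the GENCODE annotation of the same strand, 89.6% of the ends lay in a 3’ UTR, 8.02% outside transcripts, 1.24% in an intron, 1.10% in another exon and 1 in coding sequence alone. An end in a 3’ UTR was counted there first. Of those, 49 (1.12% of all ends within 100 nt) also lay in the coding sequence of another transcript, against 0.222% of isoforms beyond 100 nt. An annotated transcript ended within 10 nt of 70.8% of them, which carried 95.005% of their wild-type reads. Isoforms beyond 100 nt had 86.7% in a 3’ UTR and 66.0% near an annotated end.

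One of 13 poly(A) hexamers was found on the sense strand within the last 40 nt of 3968 of 4363 ends (90.9%). The search began with AATAAA and went on to ATTAAA where it was absent. It then took AGTAAA before TATAAA and CATAAA before GATAAA. The next was AATATA, followed by AATACA and then by AATAGA. The last were ACTAAA with the rarer AAGAAA and finally AATGAA or else TTTAAA. Several of these can overlap in 1 RNA. AATAAA was present at 61.2% and ATTAAA, where AATAAA was absent, at 13.3%, against 61.1% and 15.96% of the 42870 isoforms beyond 100 nt, of which 91.8% had any of the 13. The stretch from the first base of the hexamer to the end, both bases counted, had a median of 23 nt, against 22 nt beyond 100 nt. The ends thus had hexamers about as often and at about the same spacing as the others. At 1 to 10 nt, however, 19.2% of the ends had no hexamer of the list, against 5.07% at 41 to 50 nt. At least 6 A among the 10 genomic bases after the end were found at 5.43% of the ends and at 5.9995% of those beyond 100 nt.

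In 349 of the ends, in 138 genes, the hexamer overlapped the stop codon itself, and in another 78, in 42 genes, it lay wholly upstream of the stop codon. These ends were 6 to 36 nt (median 18) and 1 to 27 nt (median 8) from the stop codon, and held 1.32% and 0.0762% of the wild-type reads of all 4363. The commonest place was a hexamer whose first base lies at -4, where 1 is the first base after the stop codon. There the stop codon follows the leading pair of bases of the hexamer. It accounted for 256 ends in 107 entries, of which 250 ends in 103 entries had the stop codon TAA (AATAAA in 160 of the 256 ends and ATTAAA in 59) and 6 had TGA. At first bases -3 and -2 there were none, as no stop codon is spelled there by these letters, and at -1 and 0 there were 39 and 49. TAA was the stop codon of 38.4% of the 1268 entries, TGA of 43.8% and TAG of 17.6%, against 27.7%, 50.5% and 21.5% of all 11035 entries. The rule did not use the stop codon, but TAA can be part of the commonest hexamers and TAG cannot, so the shares are given as a description.

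**Figure D2:**
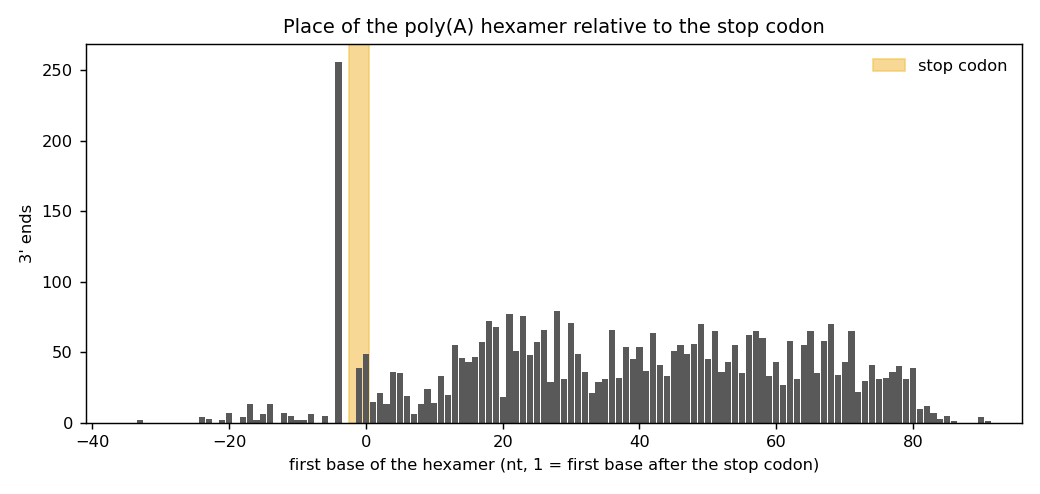
Number of 3’ ends within 100 nt by the place of the first base of their poly(A) hexamer (x axis, nt, 1 is the first base after the stop codon, which is shaded at -2 to 0). The bar at -4, where TAA is part of the hexamer, holds 256 ends.

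Of the 5 most read ends of this kind, at most 1 per gene, 4 are shown with their hexamers in capitals, because in each the stop codon gives bases to the signal.
RPL13: aaAATAAAgccctcctggggacttggaatc
HN1: tggatttgtttcATTAAAaagaagcacttt
MYBBP1A: aaaaAATAAAggagcagtttggcttccgga
SURF2: acagccaggttAATAAAagcacatgccgtg
In RPL13 (chr16:89629444-89629473, plus strand), HN1 (chr17:73132084-73132113, minus strand) and MYBBP1A (chr17:4442214-4442243, minus strand) the hexamer begins at -4, and in SURF2 (chr9:136228003-136228032, plus strand) at -1, and all have the stop codon TAA. The 3’ ends are at 23 nt in RPL13, 13 nt in HN1, 17 nt in SURF2, and 34 nt in MYBBP1A, whose run stops at 21 nt. Hexamers that lie wholly upstream of the stop codon are shown by the 3 most read.
ASIC3: tcttcaccccaAATAAAgtcctaatgcatc
VPS29: aacgaatcgAATACAaaaaaccttaaagcc
NUDT8: caggactgAATAAAggtctttgacagctct
ASIC3 (chr7:150749811-150749840, plus strand), a proton-gated channel, has AATAAA from -12 and ends at 6 nt. VPS29 (chr12:110929806-110929835, minus strand), of the retromer, has AATACA from -16 and ends at 4 nt, and NUDT8 (chr11:67395410-67395439, minus strand) has AATAAA from -14 and ends at 7 nt.

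Abundance of an isoform was taken as RPM with TMM factors, which scale the libraries on the assumption that most isoforms do not differ. The RPL13 end at 23 nt, of a protein of the large ribosomal subunit, had 962, 1212, 1518, 942 and 1021 in wild-type and 2095, 2028, 1774 and 2783 in R749H. All R749H values lay above all wild-type values, with a log2 difference of 0.94 ± 0.18 (SE, 5 wild-type against 4 R749H libraries, limma adjusted p = 0.00340).

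Others were lower in R749H. MYBBP1A, a nucleolar protein that binds Myb, had 268, 215, 163, 224 and 155 in wild-type and 121, 97.5, 82.9 and 102 in R749H at 34 nt, with a log2 difference of -1.01 ± 0.19 (SE, 5 wild-type against 4 R749H libraries, limma adjusted p = 0.00373). The abundance of its whole entry differed by a log2 of -0.92 ± 0.18 (SE, limma adjusted p = 0.00201). On average 99.4% of its reads in wild-type and 99.6% in R749H ended within 100 nt. ASIC3 had 34.8, 57.3, 40.1, 61.4 and 59.8 and 27.1, 17.6, 18.3 and 14.7, with a log2 difference of -1.38 ± 0.24 (SE, 5 wild-type against 4 R749H libraries, limma adjusted p = 0.00203). The R749H libraries lay below the wild-type libraries in both. VPS29 also passed at 4 nt (log2 difference -0.78, limma adjusted p = 0.0455), with overlapping libraries, while HN1, SURF2 and NUDT8 did not pass (limma adjusted p = 0.0724, 0.345 and 0.134).

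For 784 of the 1268 entries, the ends within 100 nt took over 50% of the reads of the entry in wild-type, and for 386 they took 99% or more. In 40 entries they took under 1%. The median share was 80.4% in wild-type and 83.3% in R749H, where 816 entries were over 50%. Since these values helped to choose the isoforms, they are given as a description.

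Reads that end within 100 nt of a stop codon, whether or not the isoform met the read minimum, took 38.4, 42.3, 41.5, 41.9 and 40.1% of the reads of the 5 wild-type libraries and 46.2, 47.5, 44.8 and 47.4% of the 4 R749H libraries. The means were 40.8% ± 1.63 (SD, n = 5) and 46.5% ± 1.27 (SD, n = 4), a difference of 5.64 percentage points, and the lines did not overlap. Without R749H replicate 3 the difference was 6.21. Ribosomal protein genes moved with it, with 32.98, 36.6, 35.7, 36.1 and 34.1% of all reads in wild-type and 41.9, 42.7, 40.4 and 42.1% in R749H. Within these genes the share of reads that end within 100 nt was 89.1% ± 1.20 and 89.4% ± 0.837 (SD). In the other genes it was 14.4, 14.9, 15.1, 14.6 and 14.8% in wild-type and 14.8, 15.9, 15.4 and 16.5% in R749H, where the lines overlap. With equal weight for each of 9490 entries, the mean share was 7.72% ± 0.147 and 7.93% ± 0.236 (SD), with overlap as well. The larger share of a library thus went with the larger share of ribosomal protein reads, and the part of each in the other was not tested.

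**Figure D3:**
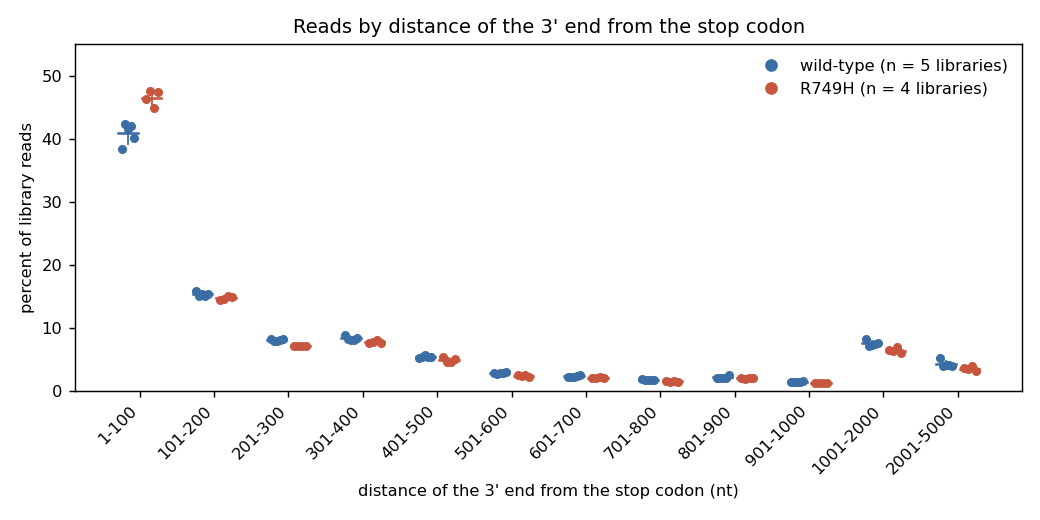
Percent of the reads of a library (y axis) by distance of the 3’ end from the stop codon (x axis; windows of 100 nt, then up to 2000 and up to 5000 nt), for 5 wild-type and 4 R749H libraries (points), with means and SD (lines). The first window is 38.4% to 42.3% in wild-type and 44.8% to 47.5% in R749H.

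Use of the region within a gene was then compared, as log2 odds of reads that end at 1 to 100 nt against the rest of the CCDS entry, with limma across all windows of 100 nt. Of all 6342 windows tested, 38 passed (0.599%), 21 higher (0.331%) and 17 lower (0.268%) in R749H. Of the windows at 1 to 100 nt that hold a selected end, 431 had a mean of at least 10 reads both inside and outside the window, and 3 of them passed (0.696%), which is near the share of all windows. All 3 were higher in R749H: RPL28, EXOC7 and VMA21. At an unadjusted p under 0.05, 63 of 431 were higher and 14 lower, against 477 and 509 of 6342.

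EXOC7, a subunit of the exocyst, which tethers vesicles to the plasma membrane, had 8.91, 15.3, 25.96, 14.2 and 12.1% of its reads within 100 nt in wild-type and 33.7, 36.3, 34.96 and 41.3% in R749H. Its R749H libraries lay above all wild-type libraries, and the log2 odds differed by 1.76 ± 0.31 (SE, 5 wild-type against 4 R749H libraries, limma adjusted p = 0.0271). Its most read end beyond 100 nt is at 2631 nt, in an annotated 3’ UTR, with 968 wild-type reads. The abundance of the entry differed by a log2 of 0.07 ± 0.16 (SE, limma adjusted p = 0.776).

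VMA21, which assembles the vacuolar proton pump, had 4.86, 7.53, 7.03, 8.49 and 9.36% in wild-type and 11.5, 20.1, 18.3 and 22.1% in R749H, also without overlap, and log2 odds that differed by 1.44 ± 0.27 (SE, 5 wild-type against 4 R749H libraries, limma adjusted p = 0.0320). Its main other end is at 4305 nt, so its near end is 4209 nt upstream of it. The entry was higher in R749H by a log2 of 0.64 ± 0.19 (SE, limma adjusted p = 0.0234).

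RPL28, of the large ribosomal subunit, had 99.81, 99.87, 99.81, 99.86 and 99.80% in wild-type and 99.94, 99.95, 99.94 and 99.98% in R749H, and log2 odds that differed by 1.98 ± 0.33 (SE, 5 wild-type against 4 R749H libraries, limma adjusted p = 0.0231). This difference rests on 474 wild-type and 132 R749H reads beyond 100 nt. The most read of those ends, with 350 and 95 reads, is at 3383 nt and lies 24 nt before the stop codon of a second CCDS entry of RPL28, whose abundance was lower in R749H by a log2 difference of -0.80 ± 0.22 (SE, limma adjusted p = 0.0132).

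The hexamers of these genes and of those with the smallest p in the other direction are shown to locate their near ends.
RPL28: cccagagcAATAAAgtcagctggctttctc
EXOC7: cattggacaGATAAAccagtgttagcttgc
VMA21: ctgatttgAATAAAgttgaaagaacatgtt
UFSP2: gAATAAAgaatcagtttaatttttcacatt
ACTR8: caagcttcttggTATAAAagactcttacag
RPS2: acaagaaaAATAAAgtgaattaagcgtgtt
RPL28 ends at 40 nt (chr19:55899711-55899740, plus strand), EXOC7 at 71 nt with GATAAA (chr17:74079658-74079687, minus strand) and VMA21 at 96 nt (chrX:150573597-150573626, plus strand). UFSP2 ends at 77 nt (chr4:186321469-186321498, minus strand), ACTR8 at 64 nt with TATAAA (chr3:53902682-53902711, minus strand) and RPS2 at 39 nt (chr16:2012060-2012089, minus strand).

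No window within 100 nt passed as lower. UFSP2, a protease that releases the modifier UFM1, had 85.5, 88.6, 94.7, 85.6 and 92.1% in wild-type and 70.6, 69.9, 45.5 and 74.6% in R749H, and log2 odds that differed by -2.16 ± 0.46 (SE, 5 wild-type against 4 R749H libraries, limma adjusted p = 0.0569). ACTR8, a subunit of the INO80 chromatin remodeller, had 42.9, 49.1, 52.9, 39.2 and 36% and 28.8, 19.2, 4.69 and 20.6% (limma adjusted p = 0.0991), on 35 to 148 reads per library. RPS2, with 99.9% and 99.8% on average, had a limma adjusted p of 0.0991. The most read end beyond 100 nt was at 103 nt in UFSP2 and at 132 nt in ACTR8, 26 and 68 nt from the near end. These had 13 and 136 wild-type reads. The UFSP2 entry had 55 to 215 reads per library, so its share also rests on other ends beyond 100 nt.

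The 3 calls depended on single libraries. RPL28 lost its call without wild-type replicate 2, 3, 4 or 5 or R749H replicate 2. EXOC7 lost it without wild-type replicate 2, 4 or 5 or R749H replicate 2 or 4, and VMA21 without wild-type replicate 1, 2, 3 or 4 or R749H replicate 2 or 4. All 3 passed without R749H replicate 1 or 3. Counted over all windows within 100 nt, which may be other windows than these, 0 passed without wild-type replicate 2 or R749H replicate 2, 1 without wild-type replicate 3, 4 or 5 or R749H replicate 4, 3 without wild-type replicate 1 or R749H replicate 3, and 11 of 428 without R749H replicate 1. At any distance, 4 of 6376 windows passed without wild-type replicate 2, 3 of 6522 without R749H replicate 2 and 124 of 6343 without R749H replicate 1. The direction was less one-sided in all windows than within 100 nt: 290 of 431 windows (67.3%, median log2 odds 0.27) were higher in R749H, against 49.97% of all 6342, where windows of an entry mirror each other. Of 2652 entries whose most upstream tested window lies beyond 100 nt, 56.6% were higher there (median 0.12). Without ribosomal protein genes, 272 of 402 windows within 100 nt (67.7%) were higher.

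Among entries with 20% to 80% of wild-type reads within 100 nt, those with the most reads were COMTD1, SOD1, TIMM13, ISYNA1 and NDUFB10. TIMM13, a chaperone of the mitochondrial intermembrane space, had 14.4, 19.1, 23.8, 19.01 and 28.5% in wild-type and 32.4, 38.8, 48.9 and 29.8% in R749H. Its lines did not overlap, but the log2 odds differed by 1.20 ± 0.27 (SE, 5 wild-type against 4 R749H libraries, limma adjusted p = 0.0638), which does not pass. Its ends are at 56 nt and 382 nt.

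COMTD1 had 24.4, 24.6, 23.6, 24.6 and 25.8% and 26.3, 27.3, 26.6 and 26.95%, with a limma adjusted p of 0.517. ISYNA1, which makes inositol phosphate, had 77.3, 78.7, 77.8, 79.4 and 80.5% and 81.9, 82.7, 81.97 and 81.9% (limma adjusted p = 0.267). SOD1, the cytosolic superoxide dismutase, had 59.7, 54.7, 61.8, 56.1 and 56.6% and 57.2, 58.4, 58.97 and 60.9%, which overlap (limma adjusted p = 0.837). In these 3 genes the main ends on either side of the limit are 3, 12 and 8 nt apart, so the limit of 100 nt divides 1 group of ends. NDUFB10, of complex I, had 58.5, 47.8, 61.1, 47.3 and 35.8% and 38.4, 43.8, 40.6 and 38.6% (limma adjusted p = 0.309). The most read end beyond 100 nt in its entry, at 3596 nt, lies in an annotated exon that is neither 3’ UTR nor coding sequence. Whether those reads belong to NDUFB10 was not tested, so its share may not describe ends of 1 gene.

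Genes of the 3’ processing machinery had such ends in 6 of 27 measured entries. NUDT21, the subunit of cleavage factor Im that is known to govern the choice of poly(A) sites, had 65.3, 62.5, 59.8, 60.8 and 58.8% of its reads within 100 nt in wild-type and 71.6, 80.9, 78.3 and 83.5% in R749H. The lines did not overlap, and the log2 odds differed by 1.22 ± 0.29 (SE, 5 wild-type against 4 R749H libraries, limma adjusted p = 0.0719), which does not pass. Its end at 87 nt (chr16:56466537-56466566, minus strand) has this sequence.
NUDT21: acagtgtagAATAAAtgtggtagaaaagtt
Its other main end is at 3575 nt, and the entry was higher in R749H by a log2 of 1.22 ± 0.21 (SE, limma adjusted p = 8.53e-04). WDR33, which binds AATAAA, had 53.3, 42.1, 48.3, 56.3 and 45.9% and 53.3, 57.7, 67.9 and 40.9%, with overlap, for ends at 5 nt of an entry with 15 to 71 reads per library. A short PAPOLA entry, of the poly(A) polymerase, had 94.4, 93.1, 97.6, 96.6 and 92.3% and 100, 100, 88.6 and 100%, on 18 to 98 reads per library. That entry was higher in abundance by a log2 of 1.28 ± 0.33 (SE, limma adjusted p = 0.0102). CPSF1 and CPSF3 (the nuclease) had 99.9% to 100% within 100 nt in every library, and the abundance of CPSF1 was higher and that of CPSF3 lower (log2 differences 0.54 and -0.73, limma adjusted p = 0.0272 and 0.0390).

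**Figure D4:**
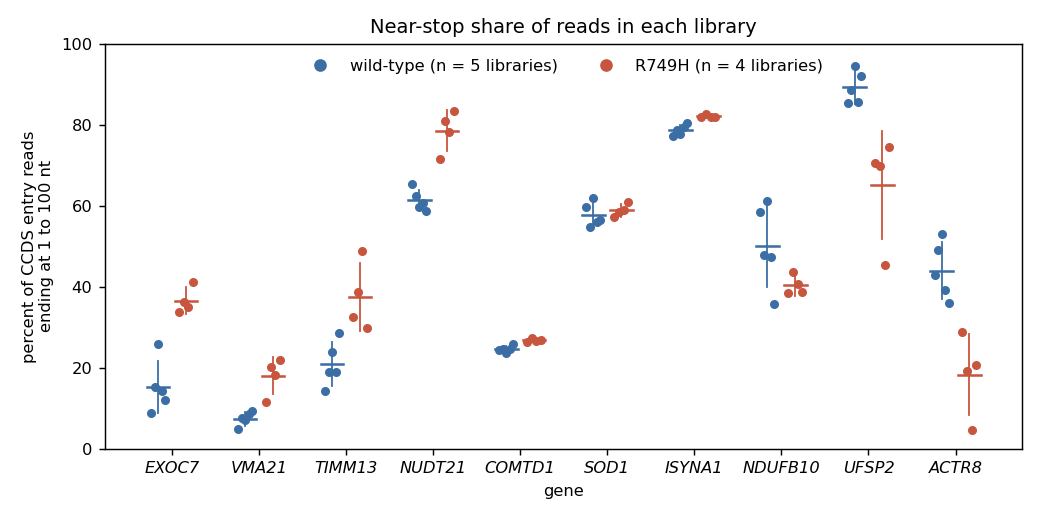
Percent of the reads of a CCDS entry that end 1 to 100 nt after the stop codon (y axis) in each of 5 wild-type and 4 R749H libraries (points), with mean and SD (lines), for 10 genes. EXOC7 and VMA21 passed the test, and the other 8 did not.

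Use of single isoforms was compared in the same way, as log2 odds of an isoform against the rest of its entry. Of all 19303 isoforms tested, 5 passed (0.0259%). Of the 2174 within 100 nt, 1 passed (0.0460%), and 153 had an unadjusted p under 0.05 (7.04%, against 7.87% of all). It was the EXOC7 end at 71 nt, with 4.95, 6.94, 9.87, 7.67 and 5.799% of the entry's reads in wild-type and 15.6, 18.02, 18.01 and 20% in R749H, a log2 odds difference of 1.55 ± 0.22 (SE, 5 wild-type against 4 R749H libraries, limma adjusted p = 0.0358). It failed without wild-type replicate 1, 2, 4 or 5 and without R749H replicate 2 or 4. In these fits no other isoform within 100 nt passed either. Without R749H replicate 1 there were 3 calls within 100 nt, and without R749H replicate 3 there were 2, out of 26 over all isoforms in each of these fits.

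The next higher ones, at 96 nt in VMA21 and at 58 nt in TIMM13, had limma adjusted p of 0.104 and 0.128. Of those lower in R749H, the RPS24 end at 75 nt had 5.301, 5.12, 5.302, 4.96 and 5.2996% of the entry's reads in wild-type and 4.29, 4.17, 4.14 and 4.57% in R749H. This small difference did not overlap between the lines, but had a limma adjusted p of 0.128. UFSP2 at 77 nt and CDK5RAP2, a centrosome protein, at 40 nt had 0.188 and 0.290.

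Many more ends passed in abundance than in use. Of all 20838 isoforms tested for abundance, 2936 passed (14.1%), 1346 higher (6.46%) and 1590 lower (7.63%) in R749H. Of the 2277 within 100 nt that were tested, 392 passed (17.2%), 266 higher (11.7%) and 126 lower (5.53%), in 114 and 81 entries. Their median log2 difference was 0.15, against -0.06 over all isoforms. With the authors' scaling alone, without TMM, 135 were higher and 241 lower, and the medians moved to -0.08 and -0.30. With TMM but no filter on mean reads, 130 were higher and 141 lower, with medians of -0.02 and -0.22. The direction of a count thus depended on the scaling and on the read minimum. In each of these fits the median within 100 nt was above that of all isoforms. Counts without 1 library ran from 214 (without R749H replicate 2) to 430 (without R749H replicate 1), with 246 without wild-type replicate 2, 259 without wild-type replicate 4 and 242 without R749H replicate 4, and there were 419 without R749H replicate 3. Over all isoforms, 1578 of 21287 passed without R749H replicate 2 and 3351 of 20796 without R749H replicate 1.

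The 5 largest differences among higher ends without overlap were in RPL22L1, HIST1H4J, H3F3B, SYCE1L and CREM. The RPL22L1 end at 62 nt, of a paralogue of RPL22, had 1.42, 0.839, 1.82, 2.66 and 1.91 RPM in wild-type and 13.7, 9.05, 14.6 and 7.79 in R749H. It rose by 2.68 ± 0.37 (SE, 5 wild-type against 4 R749H libraries, limma adjusted p = 5.26e-04) on the log2 scale, on 4 to 81 reads per library. CREM, a transcription factor of the cAMP response, had 12.4, 11.7, 18.5, 15.5 and 14.9 at 71 nt in wild-type and 25.6, 88.7, 64.9 and 117 in R749H, where replicate 1 was the lowest. It rose by 2.15 ± 0.34 (SE, 5 wild-type against 4 R749H libraries, limma adjusted p = 0.00127). H3F3B, which encodes histone H3.3, had 0.355, 0.629, 1.98, 1.01 and 2.09 and 2.88, 8.25, 6.09 and 7.79 at 90 nt, which is 0.993% of its wild-type reads. HIST1H4J, a replication histone whose mRNA usually ends in a stem-loop without poly(A), had a polyadenylated end at 51 nt, outside annotated transcripts, with 0 to 27 reads per wild-type and 22 to 39 per R749H library (log2 difference 2.65, limma adjusted p = 0.0352), and it failed without wild-type replicate 2 or 3 or R749H replicate 2 or 4. SYCE1L at 68 nt had 2 to 8 reads per wild-type and 16 to 23 per R749H library (2.18, limma adjusted p = 0.0127), and failed without R749H replicate 2.

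The 5 largest among lower ends were in RIMKLA, NPEPL1, LAMA4, ASTN1 and LMF1. RIMKLA, an enzyme of N-acetylaspartylglutamate synthesis, had 7.47, 8.6001, 6.11, 7.801 and 6.78 RPM at 81 nt in wild-type and 1.02, 2.13, 0 and 0.216 in R749H, and differed by -3.84 ± 0.72 (SE, 5 wild-type against 4 R749H libraries, limma adjusted p = 0.00337) on the log2 scale. LAMA4, a laminin chain, had 6.04, 7.34, 3.796, 4.41 and 4.69 and 0.677, 0.266, 0 and 1.08 at 5 nt, with its hexamer upstream of the stop codon, and differed by -3.64 ± 0.70 (SE, 5 wild-type against 4 R749H libraries, limma adjusted p = 0.00412). NPEPL1 at 84 nt, ASTN1 at 24 nt and LMF1, which matures lipases, at 48 nt differed by -3.75, -3.20 and -3.05 (limma adjusted p = 0.00322, 0.0148 and 0.0145). All 5 had 0 reads in R749H replicate 3, the library with few isoforms of 1 read, and at most 12 in the other R749H libraries. Without that library they also passed, with smaller log2 differences of -3.004 for RIMKLA, -2.76 for NPEPL1, -2.91 for LAMA4, -2.49 for ASTN1 and -2.10 for LMF1, but ASTN1 failed without wild-type replicate 2, 3 or 4.

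Of the 10 most read ends, all had a higher mean in R749H and 6 passed. Over all 20838 isoforms tested, 46.4% were higher and 6.46% passed as higher, most of them with fewer reads than these. RPL7A, of the large subunit, had 19065, 24632, 25947, 25620.3 and 18977 RPM in wild-type and 33053, 33647, 33346 and 30097 in R749H, and rose by 0.52 ± 0.15 (SE, 5 wild-type against 4 R749H libraries, limma adjusted p = 0.0279) on the log2 scale. RPS24, of the small subunit, had 6600.5, 6283, 6446, 6991 and 7491 and 9659, 10812, 10186 and 11243, and rose by 0.63 ± 0.13 (SE, 5 wild-type against 4 R749H libraries, limma adjusted p = 0.00591). In both, the lines did not overlap. RPS6, RPL18, RPL35 and RPL36 also rose, by 0.44 to 0.85, and RPL35 and RPL36 overlapped between the lines. RPL36 was the most variable, with 5315, 10507, 10993, 9503 and 16726 in wild-type and 22748, 13265, 13776 and 25054 in R749H. RPS14, the most read of all, had 25687, 27736, 24507, 25602 and 20078 and 31827, 33957, 22604 and 35316, which overlap (limma adjusted p = 0.208), and RPL8 and RPS16 did not pass either. Without 1 library, between 1 (R749H replicate 1 or 2) and 9 (R749H replicate 3) of the 10 passed. The counts were 3 without wild-type replicate 1 or 2, 2 without wild-type replicate 3 or 4 or R749H replicate 4, and 5 without wild-type replicate 5. With the authors' scaling alone 1 passed, and all 10 were still higher.

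Abundance of whole entries was tested too. Of 9490 entries, 2261 passed (23.8%), 1052 higher (11.1%) and 1209 lower (12.7%). Of the 1164 tested entries with an end within 100 nt, 312 passed (26.8%), 187 higher (16.1%) and 125 lower (10.7%). Their median log2 difference was 0.06, against -0.06 over all entries. With the authors' scaling alone 82 were higher and 264 lower (medians -0.26 and -0.37). Without R749H replicate 2 there were 201 calls, and between 224 and 349 without another library. Over all entries, 1509 of 9581 passed without R749H replicate 2 and 2649 of 9492 without R749H replicate 1.

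The cytosolic ribosomal proteins made up the largest group, with ends within 100 nt in 73 of 88 measured entries (83.0%, against 11.5% of all entries) and 77.1% of the wild-type reads of the 4363 isoforms. Of the 73 entries, 34 rose, 1 fell and 38 did not pass, with a median log2 difference of 0.53. RPL22L1 rose most (1.85), RPLP1 of the ribosomal stalk and RPS19 rose by 1.01 and 0.998, and RPL13 by 0.95 (limma adjusted p = 1.46e-05, 9.28e-04, 0.00133 and 0.00135). The entry that fell was the second of RPL28. With the authors' scaling alone, 13 rose and 1 fell (median 0.22, against -0.37 over all entries). Counts without 1 library were 21 without R749H replicate 2, 23 without R749H replicate 4, and 27 to 40 without another. Genes without such an end were RPL22, RPL26L1, RPL29, RPL39, RPL39L, RPL41, RPL7L1, RPL9, RPS25, RPS27L, RPS28 and RPS3.

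**Figure D5:**
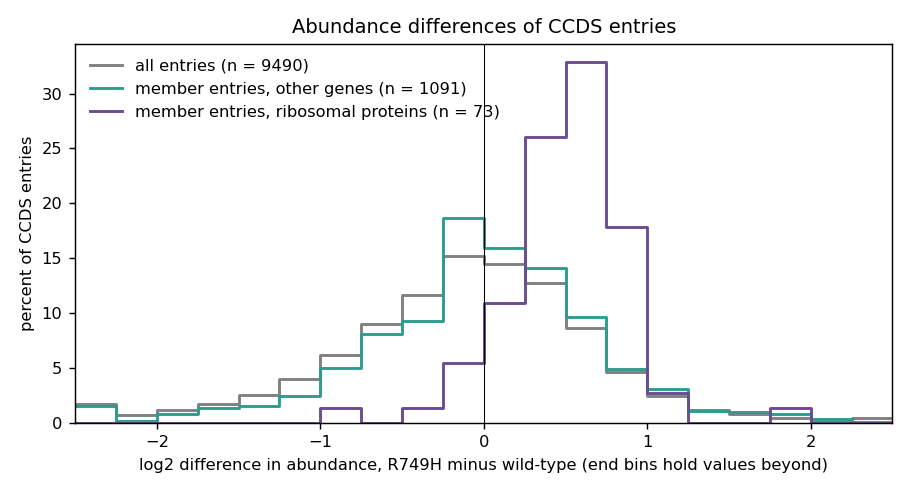
Distribution of log2 differences in abundance (x axis, R749H minus wild-type with TMM factors, bins of 0.25, end bins holding values beyond) as percent of CCDS entries (y axis). Lines show all 9490 entries, 1091 entries with an end within 100 nt of genes other than ribosomal proteins, and 73 entries of ribosomal proteins, whose median is 0.53.

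The nuclear subunits of the respiratory chain had ends within 100 nt in 33 of 83 measured entries (39.8%). Of the 32 tested, 9 rose, 2 fell and 21 did not pass (median log2 difference 0.39). ATP5O, of the stalk of ATP synthase, rose by 0.54 (limma adjusted p = 0.0181), whereas NDUFA13, NDUFB11 and ATP5I had -0.01, 0.49 and 0.38 and did not pass (0.983, 0.0726 and 0.111). Mitochondrial ribosomal proteins had such ends in 25 of 79 entries, and 3 rose, 5 fell and 16 did not pass. MRPL41 rose by 0.60 and MRPL55 fell by 0.55 (limma adjusted p = 0.0149 and 0.0371). With the authors' scaling alone the counts were 2 higher and 4 lower for the respiratory chain, and 0 and 7 for the mitochondrial ribosome.

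Proteasome subunits had such ends in 13 of 44 entries, of which 3 rose and 10 did not pass. PSMD8 rose by 0.49 (limma adjusted p = 0.0496), and PSMC3 and PSMC5, ATPases of the base, had -0.06 and 0.30 (0.862 and 0.179). Translation factors had them in 10 of 61 entries (2 rose, 1 fell, 6 did not pass), and EEF1B2, an exchange factor of elongation, rose by 0.66 (limma adjusted p = 0.00682). With the authors' scaling alone the counts were 1 higher and 1 lower for the proteasome, and 0 and 3 for translation factors. Sm and LSm proteins had them in 6 of 23 entries, with 1 lower of 5 tested. SNRPD2 and SNRPF had over 99% of their reads there, whereas SNRPD3 had 0.883% in wild-type.

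Zinc finger proteins had such ends in 24 of 350 entries (6.86%), below the share of all entries (11.5%), and 5 of the 20 tested rose and 1 fell. The median of the 20 was nevertheless a log2 difference of -0.34, with 7 above 0, and with the authors' scaling alone 2 rose and 3 fell. ZNF296 rose by 1.65 and ZNF358 fell by 0.64 (limma adjusted p = 2.89e-04 and 0.0202). Clustered replication histones had them in 3 of 11 entries and tubulins in 2 of 14, with few reads. HIST1H1C and HIST1H4J rose by 1.81 and 1.75 (limma adjusted p = 8.38e-04 and 0.00132), and for tubulins TUBA4A rose by 2.00 and TUBA8 fell by 2.49 (0.00273 and 0.0414). Of 12 Pol II subunits, POLR2I and POLR2F had such ends, with over 98% of their reads there, and neither passed in abundance (limma adjusted p = 0.723 and 0.112). Of all reads of the 12 subunits, 47.3% ± 5.17 (SD, n = 5) in wild-type and 30.6% ± 4.03 (SD, n = 4) in R749H ended within 100 nt, and all R749H libraries lay below all wild-type libraries, whereas the lines overlapped in this share for each other gene list. No test was run on this share. Within POLR2I and POLR2F themselves it was 99.98% and 98.5% in wild-type and 99.996% and 99.3% in R749H. The share of the list also depends on how its reads divide among the subunits, which was not tested.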

How the data were processed

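The deposited values are a signal: 3’ READS reads per isoform, which the authors scaled to a fixed number of poly(A) reads per replicate and per merged cell line. According to the methods of the study, reads were trimmed, mapped to hg19 with bowtie and required to end in non-templated As. They were tied to the stop codon of a CCDS entry at most 5 kb upstream. The submitters' processing notes name Bowtie2 2.3.2, which the methods give for the eNETseq libraries. Dividing the values of each library by the worth of 1 read gave whole reads for 100% of values (within 0.01 scaled reads). Sequences, stop codons and annotation were read from GRCh37 and GENCODE release 44 mapped to it. The 4 eNETseq libraries and the yeast experiments are not analysed here. Some genes that the naming rule selects are not reported here.

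Log2 odds of use and log2 abundance, with 0.5 reads added in proportion to depth and a mean of at least 10 reads required (for use, also of the rest of the entry), were fitted over all features with limma 3.58.1 (5 wild-type against 4 R749H libraries, trended variance). Benjamini-Hochberg adjustment ran over all features, and 0.05 was the threshold. Abundance used TMM factors of edgeR 4.0.16. The size of a log2 difference of isoforms with few reads depends on the method. RIMKLA had -3.84 in this fit, -4.54 with 0.1 reads added and -3.11 with edgeR. SYCE1L had 2.18, 2.29 and 2.23. Shares of reads per library were compared without a test. Precision is limited by depth and by the small number of libraries.

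The isoforms and gene lists were chosen with earlier results of these data known. Named were the 10 most read ends, the 5 closest to the stop codon, the 5 most read with a hexamer at or before the stop codon (and the 3 most read with one wholly before it), the 5 entries with most reads among those with a share of 20% to 80%, up to 4 examples per gene list, and, for each test of isoforms and windows, up to 5 with the largest change per direction that passed without overlap, filled up to 3 by the smallest p. WDR33, the second RPL28 entry, HYPK, RPL32 and the ribosomal protein genes other than list examples were named after their values were seen. Alternatives were 0.1 added reads, other read minimums, edgeR and DESeq2 1.42.0 on the recovered reads, RLE factors or the authors' scaling alone, other windows, a replicate block and each library left out. Same-numbered libraries of the lines did not deviate together (correlations of -0.04 to 0.02 for abundance), so the numbers were not taken as pairs. The tests were tried on simulated data.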

Additional observations from a re-analysis of the deposited data

Results flagged for a closer look

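In 7 of 130 groups of 4 or 5 libraries with printed values, 1 library stood apart from the rest, where chance alone gives about 1 in 20 groups. R749H replicate 3, the library that lists the fewest isoforms, was the lowest in 3 of them. It had 45.5% of UFSP2 reads within 100 nt, where the nearest R749H library had 69.9%, 88.6% of PAPOLA reads, where the other 3 had 100%, and 88.1% of ribosomal protein reads, where the nearest had 89.7%. The UFSP2 and PAPOLA entries had few reads, 55 to 215 and 18 to 98 per library. With 3 PAPOLA values tied at 100%, any lower value stands apart, so the rate of 1 in 20 does not apply to it. Without R749H replicate 3, the share of UFSP2 remained lower in R749H. Wild-type replicate 5 was the lowest for the RPL35 end at 34 nt, with 10150.0 RPM against 15269 in the nearest, and for the HN1 end at 13 nt, with 288 against 371. R749H replicate 4 was the lowest for the RPL7A end at 59 nt, with 30097 RPM against 33053, and R749H replicate 2 was the highest for ISYNA1, with 82.7% against 82.0%. What sets these libraries apart was not tested.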

How the results depend on the processing

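Of 3’ ends whose use passed, there was 1 in the reported fit, 0 with 0.1 reads added, 5 with DESeq2, 3 with the replicate block for replicates 1 to 4, and between 0 and 3 with each library left out in turn. Over all isoforms, 4 passed with 0.1 reads added, 35 with DESeq2 and 12 with the replicate block. Windows within 100 nt of the stop codon that passed numbered 3 in the reported fit, 1 with 0.1 reads added, 6 with a mean of at least 20 reads, 5 with edgeR, 17 with DESeq2, 5 with the replicate block, 5 with windows of 200 nt, and 0 to 11 with a library left out. Calls over all windows moved too, with 14 of 6342 with 0.1 reads added and 70 of 3659 with a mean of at least 20 reads. They were 70 of 6342 with edgeR and 170 of 6342 with DESeq2, where 431 windows within 100 nt were tested. With the replicate block they were 30 of 6304, and with windows of 200 nt 45 of 5502. Calls of isoform abundance ranged from 214 to 430 and those of entry abundance from 201 to 349 with a library left out, against 392 and 312, and the other alternatives kept both totals within 1.5 times. The direction could turn, since 130 isoforms were higher and 141 lower without a filter on mean reads, and 135 and 241 with the authors' scaling alone. The reported fit had 266 and 126. The difference in the share of reads that end within 100 nt was 5.64 percentage points, 5.02 to 6.21 with a library left out, and 0.209 with equal weight for each entry. A hexamer was found at 90.9% of the ends in 40 nt, 82.1% in 30 nt, 92.7% in 50 nt and 74.6% with AATAAA and ATTAAA only. The cause of these shifts was not tested, except that fewer libraries, hexamers or bases were searched where the alternative says so. Of the values of named ends and entries under the alternatives, 468 kept direction and side of the threshold, 41 lost and 15 gained a call, and none reversed. Same-numbered libraries did not correlate (r of -0.04 to 0.02 for abundance), so the replicate block is a check of numbers that do not mark pairs. The count of each 3’ end in 1 entry only was not run, since each end is already listed in 1 entry. Ends with few reads, such as those closest to the stop codon, are limited by depth.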
